A study of Mus musculus with 5 samples.

Results

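The genes described here encode the subunits of the constitutive 26S proteasome: the 20S core without the interferon-inducible immunoproteasome chains, and the 19S cap. Counted with the subunit genes throughout are those of 3 assembly chaperones of the cap, Psmd5, Psmd9 and Psmd10. All were chosen by gene name, though with earlier results of these data known, as those with a probe set annotated to 1 gene symbol only. Where a gene had several such probe sets the one with the highest mean was used. All 34 were found, of 19938 genes in all, and 5 of them had more than 1 probe set. Their messenger RNA was read as log2 signal on Affymetrix whole-transcript arrays, 1 array for each of 5 mouse pancreatic cultures. The normal ductal group held 2 cultures of duct cells, labelled Pdx-1Cre and p53L/L, the usual notation for a pair of p53 alleles flanked by loxP sites. The PDAC group held 3 primary cultures of pancreatic ductal adenocarcinoma with the same alleles and, in addition, APCL/+, which is 1 such floxed allele of Apc. The Pdx-1Cre transgene makes Cre recombinase in the pancreatic lineage, and since the controls carry the p53 alleles too they are not wild type. The title of normal ductal replicate 2 omits both Cre and the word ductal, and only that of PDAC replicate 3 adds the words mutant cell. All cultures are given the same growth protocol, under 6 passages in medium with 10% serum, which speaks of PDAC cells only, and no label states the age of the mice.

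The proteasome is the barrel-shaped protease that destroys proteins tagged with ubiquitin. Its core is a stack of rings, in which alpha subunits form the gated entrance and beta subunits the inner chamber, where the subunits encoded by Psmb5, Psmb6 and Psmb7 carry the cutting sites. The cap binds the core: its base is a ring of ATPases that unfold the substrate and push it in, and its lid holds the enzyme that removes ubiquitin. Transcription factors of the cap'n'collar family, above all Nfe2l1, are known to raise the subunit genes together when proteasome activity is short.

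The cultures differed in markers of cell types, whose part in the subunit differences was not tested. The mean of 8 duct and epithelial markers spanned 10.76 to 11.24 for normal ductal cells, with 6.74, 8.04 and 9.87 for PDAC cells, with 6 of the 8 lower in every PDAC array. Normal ductal replicate 2 stood apart from replicate 1 with higher means for fibroblast (9.93 against 7.02), acinar (7.99 against 5.32), islet (8.01 against 6.03) and endothelial (7.51 against 5.81) markers, where PDAC means were 9.07 to 9.79, 5.52 to 5.59, 5.15 to 5.17 and 4.90 to 4.96. Leukocyte markers averaged 5.62 and 6.26 on the normal ductal arrays, with a range of 5.21 to 5.34 on the PDAC arrays. In bulk RNA, fewer cells of a type and less RNA per cell cannot be told apart.

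The comparison of PDAC with normal ductal cultures asks how tumour cells with a floxed Apc allele differ from duct cells without it. Most proteasome subunit genes lay slightly higher in PDAC, by a median log2 difference of 0.15. The largest difference, -0.90, was that of 1 lid gene, Psmd8, and did not pass adjustment over all genes. In all, 28 of the 34 had a difference above 0 and 6 below 0. Of all 19938 genes 10571 lay above 0, and of the 9969 genes at or above the median level 5584 did. For 14 of the 34 every PDAC array exceeded both normal ductal arrays, which is 41.2% of the subunit genes against 13.6% of all genes tested and 23.0% of the 9969 genes at or above the median level of all genes. For 2 of them, Psmd8 and Psmd13, every PDAC array was lower, 5.9% against 12.8% of all genes. The median difference of all genes was 0.01 and that of the 9969 better expressed genes 0.05. The subunit genes lay above those 9969 in level, with array means of 10.30 to 10.53 against 8.64 to 8.71. No background closer in level was used.

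No subunit gene passed the test: limma with Benjamini-Hochberg adjustment over all genes called 0 of the 34, with 0.0552% of all genes and 0.0502% of the better expressed genes called. At an unadjusted p under 0.05 limma gave 5 higher, against 6.5% of all genes and 11.2% of the better expressed ones, and 1 lower, against 6.86% and 8.85%. The 5 were Psmb1, Psmb4, Psmc2 and the assembly chaperone genes Psmd5 and Psmd9. The lower one was Psmd8, which had the smallest adjusted p of the subunit genes, 0.165. The labels name biological replicates but no separate animals, so p-values measure the spread between these 5 cultures, and the small number of arrays limits the precision. With arrays shifted to a common median, 25 were higher without overlap and 2 lower, with 37.7% and 9.09% of all genes, and the median difference was 0.25 where that of all genes was 0.10. The count of 14 that were higher without overlap became 23 without normal ductal replicate 2 (21.0% of all genes then), the count of 2 lower became 4 (31.7%), and the 5 at an unadjusted p under 0.05 became 2 without normal ductal replicate 1 (13.5%) and 3 without replicate 2 (5.21%).

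**Figure D1:**
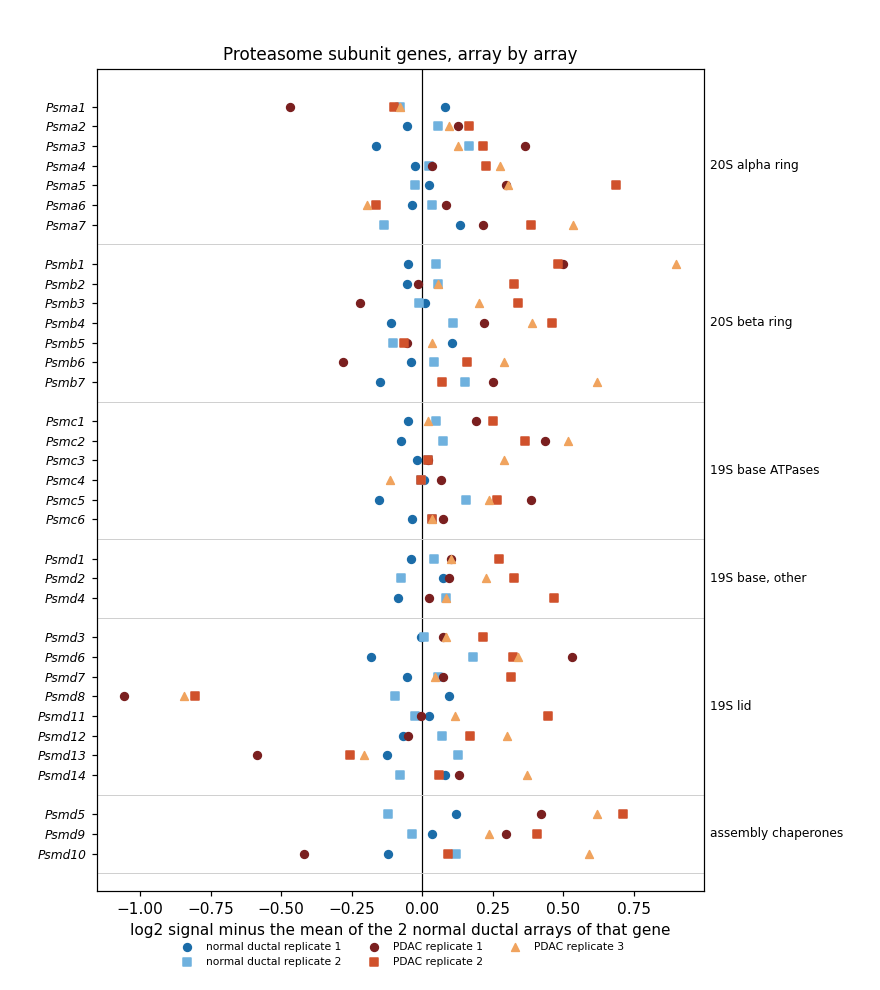
Log2 signal of each of the 34 proteasome subunit genes on each of the 5 arrays, as the difference from that gene's normal ductal mean (horizontal axis, log2), with genes grouped by place in the particle; blue points are the 2 normal ductal and red to orange points the 3 PDAC arrays. Most PDAC points lie to the right of 0, while those of Psmd8 lie between -1.05 and -0.80.

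The cultures differed in how many subunit genes were high. The mean log2 signal over the 34 was 10.30 on the array of normal ductal replicate 1 and 10.35 on that of replicate 2. On the PDAC arrays it was 10.38, 10.53 and 10.52, in the order of their replicate numbers. PDAC replicate 1 was close to the normal ductal arrays on this mean, and replicates 2 and 3 were higher. PDAC replicate 2 held the highest value of 14 subunit genes and the lowest of 0, replicate 3 the highest of 10 and the lowest of 2, and replicate 1 the highest of 6 and the lowest of 6. Normal ductal replicate 1 held the lowest value of 18. Against each gene's normal ductal mean, 24, 28 and 29 of the 34 were higher in PDAC replicates 1, 2 and 3, by medians of 0.08, 0.24 and 0.21, where the medians over the 9969 better expressed genes were 0.04, 0.09 and 0.01. Without PDAC replicate 1 the median difference of the subunit genes was 0.23.

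The differences were small and lay close together. No subunit gene differed by more than 1 on the log2 scale, where 9.8% of the better expressed genes did, and 22 of the 34 lay within 0.25 of 0. The interquartile range of the differences ran from 0.09 to 0.31, a width of 0.22, against 0.51 for the better expressed genes. The SD between cultures of 1 group had a median of 0.09 in normal ductal and 0.15 in PDAC over the 34, and 0.14 and 0.22 over the better expressed genes. The widest spreads were those of Psmd6 in normal ductal cultures (SD 0.25) and Psmd10 in PDAC cultures (SD 0.51).

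**Figure D2:**
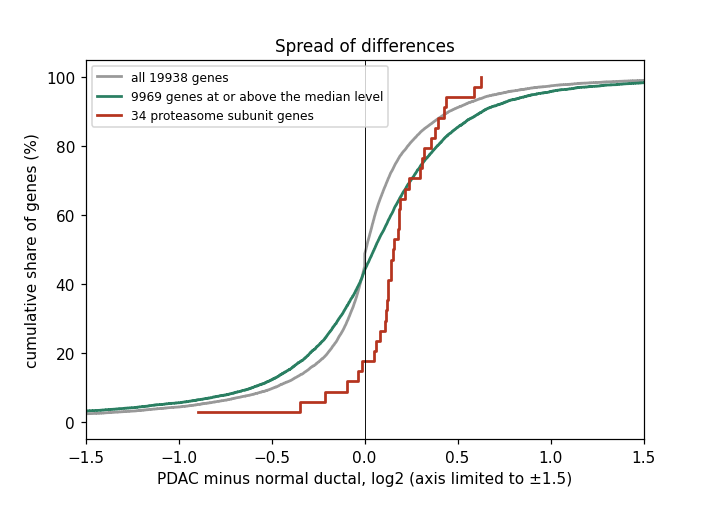
Cumulative share of genes (vertical axis, %) by the PDAC minus normal ductal log2 difference (horizontal axis, limited to 1.5 either way) for all 19938 genes (grey), the 9969 genes at or above the median level (green) and the 34 proteasome subunit genes (red). The red curve is steep and shifted to the right, with its interquartile range from 0.09 to 0.31 and Psmd8 alone at -0.90.

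The alpha ring, which gates the core, had 7 genes, 5 with a difference above 0 and 4 higher without overlap, at a median of 0.18. These 4 were 57.1% of the ring, against 13.6% of all genes and 23.0% of the better expressed ones. Psma5 showed the largest difference: it gave 9.35 and 9.30 for normal ductal cells, with 9.62, 10.01 and 9.63 for PDAC cells. All PDAC arrays were higher, replicate 2 most. The log2 difference was 0.42 (SE 0.16), or 1.34-fold, with an adjusted p of 0.388 by limma. Psma7 (0.38), Psma4 (0.18) and Psma2 (0.13) were the others without overlap. Psma3 (0.24) overlapped. Psma1 (-0.21) and Psma6 (-0.10) had lower PDAC means, with overlapping groups.

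The beta ring had 6 of 7 genes above 0 and 2 higher without overlap, at a median of 0.12. These 2 were 28.6% of the ring, near the 23.0% of the better expressed genes. Psmb1, a beta subunit without a cutting site, had the largest positive difference of all 34. It read 10.00 and 10.10 on the 2 normal ductal arrays, and 10.55, 10.53 and 10.95 on the PDAC arrays. The PDAC arrays were all higher, replicate 3 most, with a log2 difference of 0.63 (SE 0.17), a 1.54-fold level, and an adjusted p of 0.288. Psmb4, another subunit without a cutting site, stood at 9.89 and 10.11 against 10.22, 10.46 and 10.39. Its groups did not overlap either, and the difference was 0.36 (SE 0.12, adjusted p = 0.361).

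Psmb2 (0.12) and Psmb3 (0.11) lay above 0 with overlapping groups. The groups also overlapped for each of the 3 subunits that carry the cutting sites. Psmb5, the chymotrypsin-like subunit and the main target of proteasome inhibitor drugs, gave 9.53 and 9.32 for normal ductal cells, with 9.37, 9.36 and 9.46 for PDAC cells. All PDAC values lay between the normal ductal ones, and the difference of -0.04 had a 95% interval from -0.32 to 0.25. Psmb6, the caspase-like subunit, stood at 11.23 and 11.31 against 10.99, 11.43 and 11.56. PDAC replicate 1 was below and replicates 2 and 3 above both normal ductal arrays, for a difference of 0.06 (interval -0.51 to 0.63). Psmb7, the trypsin-like subunit, stood at 10.86 and 11.16 against 11.26, 11.08 and 11.63. Replicate 3 stood highest and replicate 2 fell among the normal ductal values, for a difference of 0.32 (interval -0.27 to 0.90).

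**Figure D3:**
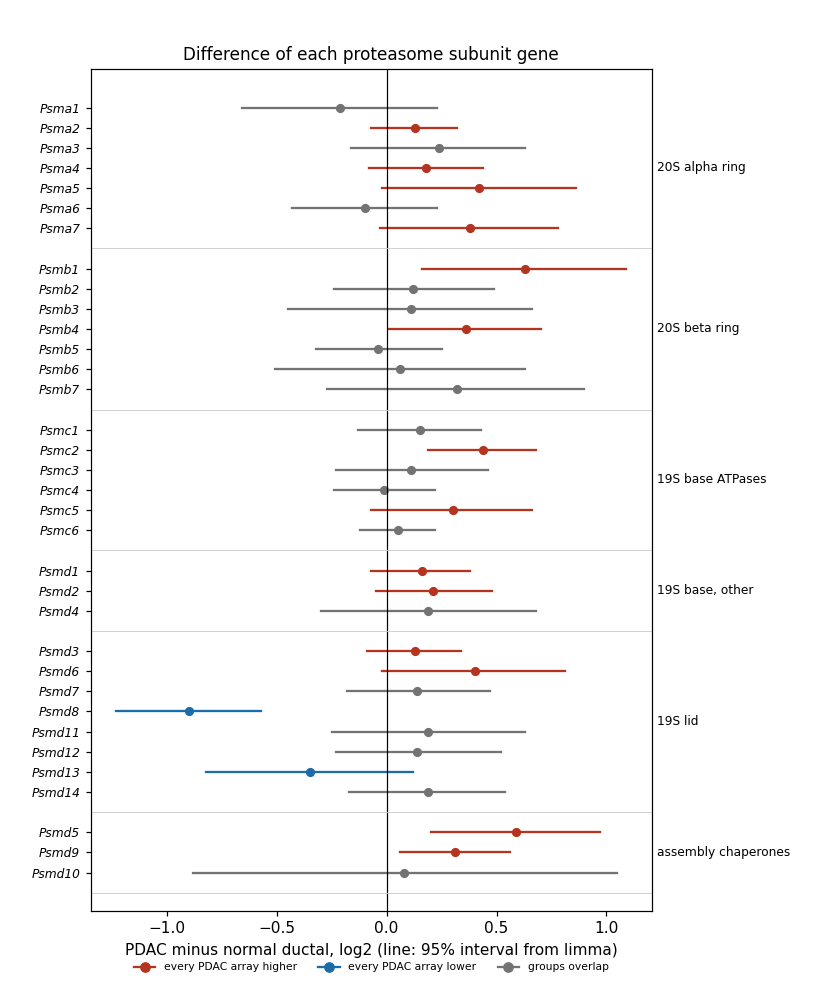
PDAC minus normal ductal log2 difference of each of the 34 subunit genes (points) with its 95% interval from limma (lines), red where every PDAC array was higher than both normal ductal arrays, blue where every one was lower, grey where the groups overlap. The interval excludes 0 for 6 genes, 5 of them higher and Psmd8 lower, before any adjustment for the number of genes.

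In the cap, 5 of the 6 ATPase genes of the base lay above 0, at a median of 0.13. Psmc2 read 10.08 and 10.23 on the 2 normal ductal arrays, and 10.59, 10.52 and 10.67 on the PDAC arrays. The PDAC arrays lay close together and all above the normal ductal ones, and the difference of 0.44 (SE 0.09, adjusted p = 0.218) had the smallest p of the subunit genes that were higher. Psmc5 (0.30) was the other ATPase gene without overlap, while Psmc1 (0.15), Psmc3 (0.11) and Psmc6 (0.05) overlapped. Psmc2 and Psmc5 were 33.3% of the ATPase genes, against 13.6% of all genes and 23.0% of the better expressed ones. Psmc4 stood at 10.14 and 10.13 against 10.20, 10.13 and 10.02, a difference of -0.01 whose sign turned with arrays at a common median (0.08).

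The other base genes were all above 0: the large scaffold subunits Psmd1 (0.16) and Psmd2 (0.21), both without overlap, and the ubiquitin receptor Psmd4 (0.19), with overlap. Those without overlap were 66.7% of these 3 genes, against 13.6% of all genes and 23.0% of the better expressed ones. Psmd2 gave 11.56 and 11.41 for normal ductal cells, with 11.58, 11.81 and 11.71 for PDAC cells. PDAC replicate 1 was only just above normal ductal replicate 1.

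The lid held both subunit genes that were lower in every PDAC array. Psmd8 read 11.37 and 11.18 on the 2 normal ductal arrays, and 10.22, 10.47 and 10.43 on the PDAC arrays. Every PDAC array was far below both normal ductal arrays, with a log2 difference of -0.90 (SE 0.12), a level 1.86-fold lower, an unadjusted p of 0.00176 and an adjusted p of 0.165 by limma. Over 15 alternatives the difference ran from -0.99 to -0.80 and the adjusted p from 0.0742 to 0.440. By unadjusted p Psmd8 ranked 211 of all genes tested. Psmd13 stood at 9.97 and 10.22 against 9.51, 9.84 and 9.89, with all PDAC arrays lower, replicate 1 most, and a difference of -0.35 (SE 0.17, adjusted p = 0.512). The other 6 lid genes lay above 0, from 0.13 for Psmd3 to 0.40 for Psmd6, these 2 without overlap, with Psmd7 (0.14), Psmd11 (0.19) and Psmd12 (0.14) among the rest. Psmd14, the lid enzyme that removes ubiquitin chains, stood at 11.13 and 10.97 against 11.18, 11.11 and 11.42, with overlapping groups and a difference of 0.19 (interval -0.17 to 0.54).

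The products of Psmd5, Psmd9 and Psmd10 carry cap subunit names but are known as chaperones that help to build the base and leave the finished particle. Psmd5 gave 10.01 and 9.77 for normal ductal cells, with 10.31, 10.60 and 10.51 for PDAC cells. All PDAC arrays were higher, with a difference of 0.59 (SE 0.14), 1.5-fold, and an adjusted p of 0.253. Psmd9 stood at 8.49 and 8.42 against 8.75, 8.86 and 8.69, without overlap and with a difference of 0.31 (SE 0.09, adjusted p = 0.311). Psmd10, also known as the oncoprotein gankyrin, spread widely instead: 8.62 and 8.86 on normal ductal arrays, then 8.32, 8.83 and 9.33 on PDAC arrays. Its PDAC values ran from below to above both normal ductal arrays, and the difference of 0.08 had an interval from -0.88 to 1.05.

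The promoters of the genes with an unadjusted p under 0.05 are shown so that the lower gene, Psmd8, can be set beside the higher ones. The RefSeq table for GRCm38.p6 held 30 windows for 28 of the 34 genes, and the other 6, Psmb1 among them, had no entry. The 250 bases upstream of the annotated start are printed 5′ to 3′ on the strand of the gene, from chr7:29180674-29180923 (minus strand) for Psmd8, chr3:94886959-94887208 (minus strand) for Psmb4, chr5:21785025-21785274 (plus strand) for Psmc2, chr2:34870963-34871212 (minus strand) for Psmd5 and chr5:123227940-123228189 (plus strand) for Psmd9. Capitals mark matches, on either strand, to the box with the letters CCAAT, to the core of ETS factor sites, written CCGGAA, to the GC box GGGCGG, and to the core TGACNNNGC of the antioxidant response element that Nfe2l1 and Nfe2l2 bind.
Psmd8: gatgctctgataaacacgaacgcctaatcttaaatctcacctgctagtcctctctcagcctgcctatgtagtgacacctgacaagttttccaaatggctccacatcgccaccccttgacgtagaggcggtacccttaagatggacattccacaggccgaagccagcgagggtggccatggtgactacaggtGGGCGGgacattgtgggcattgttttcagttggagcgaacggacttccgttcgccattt
Psmb4: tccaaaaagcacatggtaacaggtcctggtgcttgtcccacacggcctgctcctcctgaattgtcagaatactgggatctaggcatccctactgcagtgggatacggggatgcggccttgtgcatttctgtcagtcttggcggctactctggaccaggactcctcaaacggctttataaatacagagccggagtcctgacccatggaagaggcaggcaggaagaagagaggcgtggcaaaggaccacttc
Psmc2: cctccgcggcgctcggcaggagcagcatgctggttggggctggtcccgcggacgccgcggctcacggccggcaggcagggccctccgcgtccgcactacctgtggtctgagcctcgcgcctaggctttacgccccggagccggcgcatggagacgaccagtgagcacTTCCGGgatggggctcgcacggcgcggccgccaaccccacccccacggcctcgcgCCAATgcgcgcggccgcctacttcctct
Psmd5: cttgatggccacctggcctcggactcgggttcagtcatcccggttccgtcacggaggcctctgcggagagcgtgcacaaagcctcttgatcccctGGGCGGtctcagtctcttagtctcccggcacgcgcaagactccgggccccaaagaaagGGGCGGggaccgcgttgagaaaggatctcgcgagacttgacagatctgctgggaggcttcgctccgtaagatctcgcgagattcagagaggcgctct
Psmd9: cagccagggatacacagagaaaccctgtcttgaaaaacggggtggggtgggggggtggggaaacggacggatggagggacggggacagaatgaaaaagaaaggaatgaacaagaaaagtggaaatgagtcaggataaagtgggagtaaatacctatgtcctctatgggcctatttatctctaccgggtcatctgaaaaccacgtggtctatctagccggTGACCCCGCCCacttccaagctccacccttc

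Each motif was counted in windows of 300 bases, 250 before and 50 after the start, over the 30 windows of the subunit genes and all 32851 windows of the table, which include noncoding genes. The ETS core was in 16 of the 30 windows (53.3%) and in 14.9% of all windows. The GC box was in 18 (60.0% against 35.7%), the CCAAT letters in 11 (36.7% against 37.4%) and the antioxidant response element core in 5 (16.7% against 12.4%). In the printed sequences Psmd8 and Psmd5 carried the GC box, Psmc2, in the first of its 2 windows, an ETS core and a CCAAT match, and Psmb4 no match upstream, its ETS core lying after the start. In Psmd9 the response element core and a GC box overlapped. These are matches of letters and not measured binding sites.

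The 5 stretches with the response element core are shown because they lie at genes with unlike differences, -0.04 for Psmb5, 0.06 for Psmb6, 0.05 for Psmc6, 0.14 for Psmd12 and 0.31 for Psmd9. Each holds 29 bases on the strand of the gene with the core in capitals, in Psmc6 and Psmd12 on the opposite strand, in GRCm38.p6, from chr14:54618024-54618052 (minus strand), chr11:70525338-70525366 (plus strand), chr14:45329587-45329615 (plus strand), chr11:107479278-107479306 (plus strand) and chr5:123228149-123228177 (plus strand) in that order. The groups did not overlap for Psmd9 alone of these 5. The match lay 47 bases upstream of the start in Psmb5, 9 in Psmb6, 227 in Psmc6, 247 in Psmd12 and 31 in Psmd9, counted to its first base on the strand of the gene. Starts are those on which the promoter windows were built. For Psmb6 that start lies inside the gene, annotated from chr11:70525324, and the core lies within the gene too.
Psmb5: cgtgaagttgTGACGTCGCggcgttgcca
Psmb6: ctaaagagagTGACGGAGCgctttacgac
Psmc6: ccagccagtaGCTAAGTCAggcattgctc
Psmd12: tctGCTGTGTCAcatttgcccccctcaga
Psmd9: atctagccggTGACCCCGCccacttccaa

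The place of the genes in the genome was compared with their differences after the values had been seen. The 4 subunit genes on chromosome 7, Psma1, Psmc4, Psmd8 and Psmd13, all lay below 0, with the sign of Psmc4 turned at a common array median as given above. Of the 30 genes elsewhere, 28 lay above 0, and their median was 0.18. Over the 701 better expressed genes of chromosome 7 the median difference was -0.24, the lowest of 20 chromosomes, 76.0% of these genes were below 0 and 42.4% were lower in every PDAC array, against 17.1% of all better expressed genes. The chromosome 7 median was below 0 in each PDAC culture, at -0.30, -0.16 and -0.19 in replicates 1, 2 and 3. Psma1, at -0.21, lay near the chromosome 7 median of -0.24. Psmc4 stood at 0.23 from that median, above it, Psmd13 at -0.11 and Psmd8 at -0.66. Of the 10 measured genes nearest Psmd8, 6 lay below 0, at a median difference of -0.28. Of the 10 nearest Psmd13, 4 lay below 0, at a median of 0.05. Psmb1, the highest, lies on chromosome 17, whose median of 0.27 was the highest but 1. Set against the median of its own chromosome, 27 of the 34 subunit genes were higher and 7 lower, with a median of 0.12. The part of chromosome dosage in these differences was not tested.

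**Figure D4:**
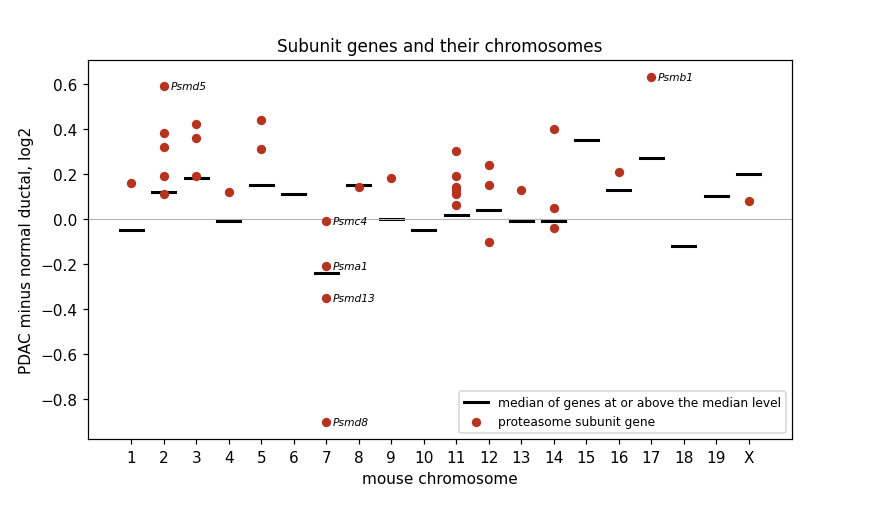
PDAC minus normal ductal log2 difference (vertical axis) of the 34 subunit genes (red points) on their chromosomes (horizontal axis), with black bars at the median of each chromosome's genes at or above the median level. The 4 genes on chromosome 7 lie at or below 0, where the bar is at -0.24, and Psmb1 stands highest on chromosome 17.

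For 5 subunit genes the array had further probe sets, and these read nearly the same difference. Probe sets are numbered along the genome: for 99.6% of 2000 genes checked, the probe sets with the nearest numbers belonged to genes on the same chromosome. By this measure 1 extra probe set each of Psma5, Psmb3, Psmc1 and Psmd2, and 2 of the 3 of Psma3, lie on another chromosome than the gene, where a near-identical copy may share signal with it. For Psma3 the probe set with the highest mean lay among genes of chromosome 6, while the gene is on chromosome 12. That probe set gave 0.24, the one at the gene's own place 0.25 and the third, among genes of chromosome 14, 0.28. The paired values were 0.42 and 0.53 for Psma5, 0.11 and 0.16 for Psmb3, 0.15 and 0.14 for Psmc1, and 0.21 and 0.26 for Psmd2, with the gene's own place first. What share of the signal comes from such copies was not tested.

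The chaperones that assemble the 20S core were all higher in PDAC. All 5 measured, Psmg1 to Psmg4 and Pomp, exceeded both normal ductal arrays in every PDAC array, with a median difference of 0.44. Of all genes 13.6% did so, and of the better expressed ones 23.0%. Psmg4 read 6.80 and 6.85 on the 2 normal ductal arrays, and 7.28, 7.30 and 7.14 on the PDAC arrays, a difference of 0.41 (SE 0.08, adjusted p = 0.210). Psmg1 had 0.53 (SE 0.16, adjusted p = 0.322), and Pomp, the maturation factor of the core, 0.44 (SE 0.15, adjusted p = 0.350). These 3 were at an unadjusted p under 0.05, where 6.5% of all genes and 11.2% of the better expressed ones were higher at that level. None of them passed the limma test over all genes. Psmg2 (0.52) and Psmg3 (0.35) completed the list.

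The immunoproteasome chains, which replace the cutting subunits after interferon, and their PA28 cap lay around 0, at a median of -0.07 over 5 genes, with 0 at an unadjusted p under 0.05 in limma. Psmb8, the counterpart of Psmb5, gave 7.87 and 7.28 for normal ductal cells, with 7.98, 6.02 and 8.34 for PDAC cells. PDAC replicate 2 was the lowest and replicate 3 the highest of the arrays, so that the difference of -0.13 had an interval from -2.49 to 2.23. Psmb9 had -0.14 (SE 0.12) with overlap, and Psmb10, at 8.44 and 8.25 against 8.5, 8.5 and 8.88, was higher without overlap (0.28, SE 0.17, adjusted p = 0.550). PDAC replicate 2, where Psmb8 was lowest, and replicate 3, where it was highest, had nearly the same mean over the constitutive subunit genes, 10.53 and 10.52.

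Among 9 measured regulators, none was higher without overlap and 3 were lower, against 12.8% of all genes and 17.1% of the better expressed ones. Nfe2l1, the main activator of subunit genes, read 10.20 and 9.65 on the 2 normal ductal arrays, and 9.43, 9.70 and 9.59 on the PDAC arrays. PDAC replicate 2 lay between the normal ductal arrays and the others below both, for a difference of -0.35 (SE 0.21, adjusted p = 0.550). That value rests on which normal ductal array is used: it was -0.07 without replicate 1 and -0.63 without replicate 2. Nfe2l2 had 0.13 (SE 0.21), with overlapping groups. The small Maf proteins Maff and Mafk, partners of Nfe2l1 on DNA, had -1.35 (SE 0.26, adjusted p = 0.210) and -0.69 (SE 0.21, adjusted p = 0.324), the latter -0.41 without normal ductal replicate 1. Mafg, also a small Maf protein, had -0.12 (SE 0.09), with overlapping groups. Maff gave 9.04 and 8.42 for normal ductal cells, with 7.48, 7.52 and 7.12 for PDAC cells, the largest of the 38 differences outside the subunits. Bach1, a repressor that competes for the same element, had -0.24 (SE 0.07, adjusted p = 0.309), and -0.15 at a common array median. Maff, Mafk and Bach1 were at an unadjusted p under 0.05, against 6.86% of all genes that were lower at that level, and did not pass the test over all genes.

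**Figure D5:**
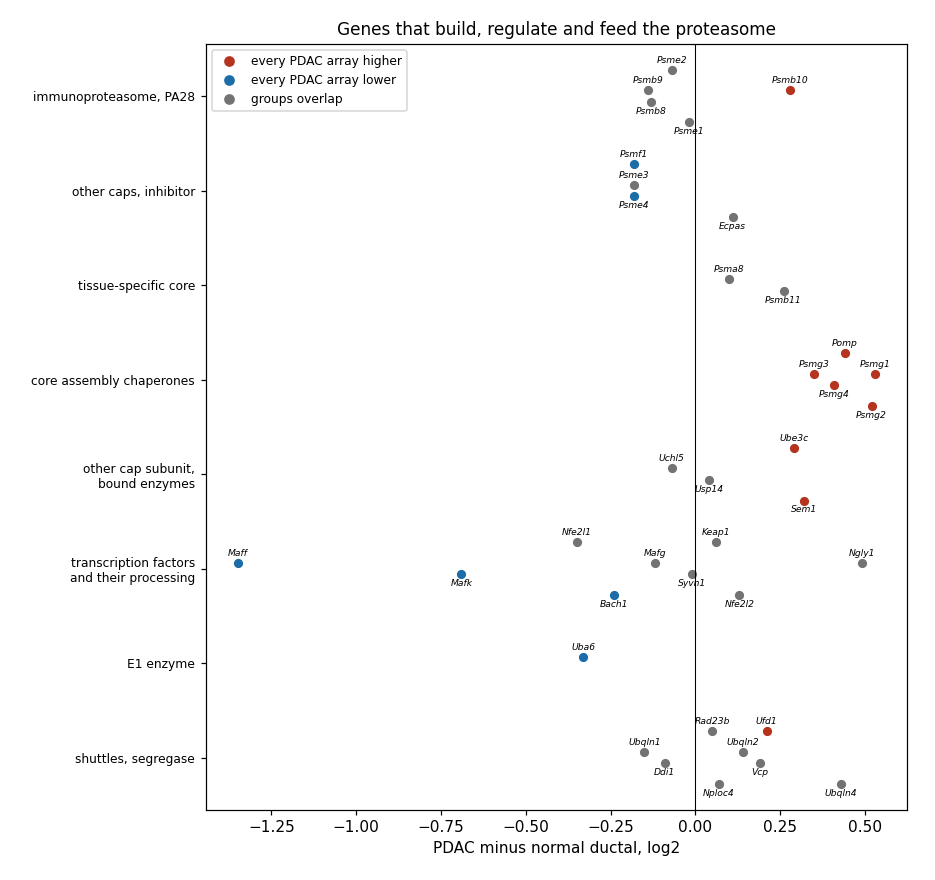
PDAC minus normal ductal log2 difference (horizontal axis) of the 38 measured genes outside the constitutive subunits, in rows by role; red marks genes higher in every PDAC array, blue genes lower in every one, grey genes whose groups overlap, and points are offset vertically only to separate them. The 5 core assembly chaperones lie together between 0.35 and 0.53, and Maff lies farthest left at -1.35.

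For the genes that follow, 13.6% of all genes were higher without overlap and 12.8% lower. The shares of the better expressed genes were 23.0% and 17.1%. Among the cap genes outside the 34, Sem1, a small lid subunit, had 0.32 (SE 0.13) and Ube3c, a ligase bound to the cap, 0.29 (SE 0.13), both higher without overlap. The alternative cap Psme4 and the inhibitor Psmf1 each had -0.18 (SE 0.12 and 0.09), both lower without overlap. Uba6, a ubiquitin-activating enzyme and the only gene of its list measured here, stood at 9.93 and 9.87 against 9.51, 9.67 and 9.52, lower in every PDAC array (-0.33, SE 0.09, adjusted p = 0.288). Of 8 shuttle and segregase genes only Ufd1 was without overlap (0.21, SE 0.09), which is 12.5%, near the 13.6% of all genes that were higher. Ubqln1 had -0.15 (SE 0.10). The testis subunit Psma8 (0.10) and the thymus subunit Psmb11 (0.26) had log2 signals between 4.4 and 5.0 on every array, where the array medians were 5.90 to 6.02. Psmb11 rested on the normal ductal arrays, at -0.01 without replicate 2 and 0.54 without replicate 1, where limma's adjusted p was 0.00515 against a lone normal ductal array.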

How the data were processed

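RNA from 5 cultures was labelled with biotin by whole-transcript kits and read on arrays, per the labels' protocols. The authors deposited 1 log2 signal per probe set, made with Transcriptome Analysis Console 1.0.0.234 and build mm10 per the submitters' processing notes; no label used here names the background correction or normalization, and that the scale is log2 is inferred from the range of the values (0.727 to 13.9). Of 35556 probe sets, 21789 had 1 gene symbol in the platform annotation and gave 19938 genes, the highest mean being used where a gene had several. Positions come from GRCm38.p6, the assembly of mm10.

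All genes were fitted with limma 3.58.1 in R 4.3.3 (lmFit, eBayes with an intensity trend, two-sided, residual degrees of freedom 3, prior 0.905); Benjamini-Hochberg adjusted p-values cover every gene, with a threshold of 0.05; the fit was tested on simulated data. The subunit genes and lists were chosen with earlier results of these data known. Array values are given for subunit genes with an unadjusted p under 0.05, the largest difference of each structural group, Psmb5, Psmb6, Psmb7 and Psmd14; Psmd13, Psmd10 and Psmc4 were added after their values were seen. Of the other lists, genes with an unadjusted p under 0.05, or else the 2 with the smallest p, are named, with Nfe2l1, Psmb8, Psmb9 and Psmb10. Mafg and Nfe2l2 were added after their values were seen. Better expressed genes are those with a mean at or above 6.61, the median of all genes. Alternatives changed the normalization, the low filter, the variance model, the probe set rule, array weights, a replicate block and the cultures included. Figures used Python 3.11.15 and matplotlib 3.10.9.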

Additional observations from a re-analysis of the deposited data

How the results depend on the processing

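No alternative brought a subunit gene under an adjusted p of 0.05 in limma; the lowest adjusted p over 15 alternatives was 0.0742, for Psmd8. Of 510 subunit differences recomputed, 497 kept their direction, and 29 of the 34 genes did so throughout. The other 5 all had small differences. At a common array median Psmb5 stood at 0.06 and Psmc4 at 0.08, and with array weights Psmc4 at 0.00 and Psmd10 at -0.01. With 1 culture left out, Psmb3 ran from -0.01 to 0.27, Psmb5 from -0.14 to 0.07, Psmb6 from -0.06 to 0.23, Psmc4 from -0.06 to 0.03, Psmd10 from -0.17 to 0.34 and, among the other genes, Psmb8 from -0.58 to 0.58 and Psmb11 from -0.01 to 0.54; Psmb11 without normal ductal replicate 1 was the only named gene with an adjusted p under 0.05 in an alternative (0.00515), at a signal below the array medians. Of the other differences of 0.2 or more in size, 1 left-out culture moved these by over 1.5 times: without normal ductal replicate 1, Psma1 to -0.13, Psma3 to 0.07, Psmb7 to 0.17, Psmc5 to 0.15, Psmd6 to 0.22, Nfe2l1 to -0.07, Mafk to -0.41, Pomp to 0.27 and Ube3c to 0.18; without replicate 2, Psma3 to 0.40, Psma7 to 0.24, Psmc5 to 0.45, Psmd13 to -0.23 and Nfe2l1 to -0.63; without PDAC replicate 1, Psma1 to -0.09 and Psmd13 to -0.23; without PDAC replicate 3, Psmb7 to 0.17 and Psmb10 to 0.16.

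The 5 subunit genes higher at an unadjusted p under 0.05 became 3 after quantile normalization (7.46% of all genes) and 9 at a common array median (9.35%). They became 3 without the lowest 50% of genes, where the share over all genes was not counted. Without PDAC replicates 1, 2 and 3 they were 5, 4 and 4 (4.79%, 4.68% and 7.1%). The 1 lower gene stayed 1 in these fits. The 14 higher without overlap became 25 at a common array median (37.7% of all genes) and 11 after quantile normalization (24.6%). With 1 culture left out they became 16 to 23: 17 without normal ductal replicate 1 (35.3%), 23 without replicate 2 (21.0%), and 18, 16 and 17 without PDAC replicates 1, 2 and 3 (17.0%, 16% and 20.1%). The 2 lower became 2 to 4, with 15.3% to 31.7% of all genes. The median difference of 0.15 became 0.25 at a common array median and ran from 0.11 to 0.23 with 1 culture left out. Leaving out a culture lets groups overlap less by construction; the cause of the other shifts was not tested. Choosing the probe set at the gene's own place, an alternative added after seeing the data, changed none of these counts.

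Deviations of same-numbered cultures from their group means correlated at -0.18 and -0.04. With 2 normal ductal arrays these deviations are mirror images, so the values cannot show whether the replicate numbers pair the samples. With the replicate block, the subunit genes at an unadjusted p under 0.05 were 1 higher and 2 lower. The shares over all genes were not counted for that fit, so the change in these counts cannot be read. Psmb6 then stood at -0.06, Psmc4 at 0.03 and Psmd10 at -0.17. With only 2 normal ductal arrays, leaving out either leaves a lone sample, which is assumed to vary like the PDAC group.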
